A study of Caenorhabditis elegans with 4 samples.

Results

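The genes encoding the basement membrane of *C. elegans* were examined on microarrays of wild-type (N2) worms treated with 200 µM remofuscin or with 0 µM remofuscin (NC, negative control). They are 10 of the 19814 genes named on the array, chosen by gene name as the chains of type IV collagen (*emb-9*, *let-2*), type XVIII collagen (*cle-1*), the laminin chains (*lam-1*, *lam-2*, *lam-3*, *epi-1*), nidogen (*nid-1*), perlecan (*unc-52*) and SPARC (*ost-1*). Their 16 probes, of 43603 in all, were found by the systematic gene or transcript name that each probe carries.

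Remofuscin, called soraprazan in the labels, is a small molecule known as a reversible inhibitor of the gastric proton pump. Worms on their first day of adulthood were kept for 14 days at 25 °C on plates seeded with *E. coli* OP50, with 200 µM remofuscin or with 0 µM, and RNA was extracted from whole worms. The labels mark 2 independent experiments, numbered 1 and 2 here, each with 1 array of remofuscin-treated worms and 1 NC array, so that each group has 2 arrays and each array holds RNA of a pool of worms. The methods name a DMSO vehicle and FUdR, which blocks progeny, for the lifespan plates, and whether the plates of the array worms held them is not given in the sources used here.

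Basement membranes are thin sheets of extracellular matrix that underlie epithelia and surround muscle, neurons, intestine and gonad. Laminin trimers, each of an alpha, a beta and a gamma chain, and type IV collagen form separate networks, which nidogen and perlecan are known to connect in mammals, and cells grip the sheet through integrins and dystroglycan. In *C. elegans* this matrix is distinct from the cuticle, which is built from a large family of small collagens (*col* genes) made by the epidermis. Many basement membrane components of the worm, type IV collagen among them, are made in body-wall muscle and somatic gonad and settle on other tissues as well.

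The arrays are 1-colour arrays, and a signal below is the background-corrected intensity of a probe scaled to the 75th percentile of its array. A probe was tested when 2 or more of the 4 arrays had it well above background, by the call of the scanner software, and 29091 probes of 14758 genes passed. Between 63.3% and 65.1% of probes were well above background on the arrays of remofuscin-treated worms and between 66.2% and 66.6% on the NC arrays, and no spot was saturated. Probes differ in how well they bind their target, so signals are compared between arrays and not between genes. Where a gene has several probes, the brightest stands for it. The RNA came from whole worms, and fewer cells of a type and less RNA per cell cannot be told apart. With 2 arrays a group, the number of arrays limits the precision of every comparison.

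Of the 10 genes, 9 had a tested probe, and 0 of these 9 passed the limits on unadjusted limma p (under 0.05) and fold change (2 or more, or 0.5 or less) between remofuscin-treated worms and NC. Over all tested genes, 3.17% passed these limits (2.26% higher and 0.908% lower in remofuscin-treated worms). None of the 14 tested probes of these 9 genes had an unadjusted limma p under 0.05, against 3.21% of all tested probes. The fold changes of the 9 genes lay between 0.724 (*cle-1*) and 1.20 (*nid-1*), 4 above 1 and 5 below, and their median log2 fold change was -0.04, against 0.00 over all tested genes. The limma adjusted p was 1.00 for each of the 9 genes. On the log2 scale the 95% interval was narrowest for *ost-1* (fold change 0.502 to 1.63) and widest for *let-2* (0.385 to 1.89), and each of the 9 intervals held 1. This fit held no term for the experiment, so differences between the experiments are part of the spread behind these intervals. For *lam-2* the log2 SE was 0.471 in this fit and 0.269 with the experiment as a block, where every probe has that same SE. With the block, the smallest unadjusted limma p of the 9 genes was 0.0834 (*cle-1*).

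**Figure D1:**
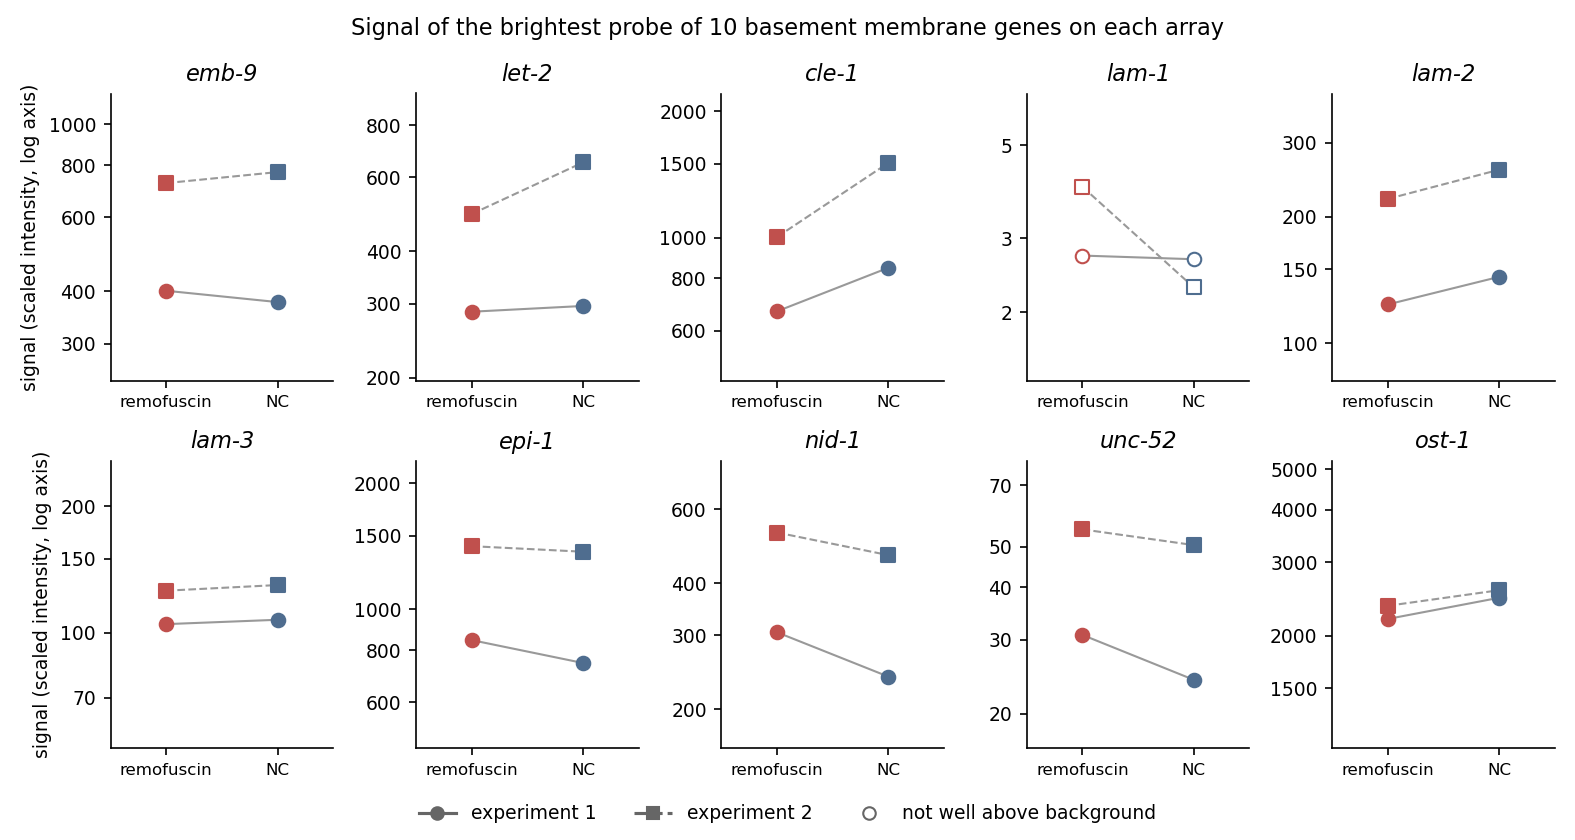
Signal (scaled intensity, log axis, with its own range in each panel) of the brightest probe of the 10 genes on each array, remofuscin left and NC right, with lines joining the arrays of 1 experiment and open symbols for a probe that was not well above background. In 9 genes experiment 2 is above experiment 1 in both groups, with the smallest gap in *ost-1*, while *lam-1* has open symbols on every array.

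The alpha chains of type IV collagen, whose trimers form the collagen network of the sheet, were compared first. *emb-9* (K04H4.1a) encodes the alpha1 chain and had signals of 401 and 725 in remofuscin-treated worms in experiments 1 and 2, against 377 and 770 in NC. The arrays of the groups overlapped, with a log2 difference between remofuscin-treated worms and NC of 0.09 in experiment 1 and -0.09 in experiment 2, and the fitted fold change was 1.00 (95% interval 0.456 to 2.20). *let-2* (F01G12.5a), which encodes the alpha2 chain, had signals of 287 and 491 in remofuscin-treated worms, against 296 and 652 in NC. The remofuscin array was the lower one in both experiments, by 0.05 and 0.41 on the log2 scale, and the groups overlapped (fold change 0.854, 95% interval 0.385 to 1.89). The NC arrays of *let-2* differed 2.20-fold between the experiments, more than the groups did in either.

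*cle-1* encodes type XVIII collagen, a basement membrane collagen whose C-terminal end is the source of endostatin and which in *C. elegans* is found at neurons and synapses. It had the lowest fold change of the 9 genes. The probe carrying the transcript name C36B1.1c had signals of 667 and 1003 in remofuscin-treated worms, against 847 and 1507 in NC (fold change 0.724, 95% interval 0.356 to 1.47). In each experiment the remofuscin array was below its NC array, but the groups overlapped because the remofuscin array of experiment 2 exceeded the NC array of experiment 1. A second probe, named C36B1.1a, had signals of 390 and 548 in remofuscin-treated worms, against 442 and 848 in NC. The third, C36B1.1d, had signals of 366 and 472 in remofuscin-treated worms, against 421 and 757 in NC. The 3 probes gave log2 fold changes of -0.47, -0.41 and -0.44, each with the remofuscin array lower in both experiments, and none had a limma p under 0.05. They measure the same 4 RNA samples and are not replicates of the treatment.

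The laminin genes followed. *lam-1* (W03F8.5) encodes the beta chain, which every laminin trimer of the worm contains. Its single probe was not well above background on any of the 4 arrays, with signals of 2.73 and 3.98 in remofuscin-treated worms, against 2.67 and 2.29 in NC, while the lowest signals that counted as well above background lay between 11.7 and 17.3. No fold change is given for it. Whether this reflects the transcript or the probe was not tested.

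*lam-2* (C54D1.5) encodes the gamma chain and had signals of 124 and 221 in remofuscin-treated worms, against 144 and 259 in NC. Its remofuscin array was lower by 0.22 and 0.23 on the log2 scale in experiments 1 and 2, and with a gap of 0.84 between the experiments among remofuscin-treated worms and 0.85 among NC, the groups overlapped (fold change 0.856, 95% interval 0.405 to 1.81). A second probe of *lam-2*, which carries a RefSeq transcript accession, was not well above background on any array.

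The alpha chains of laminin, which carry the sites bound by cell surface receptors, are encoded by *lam-3* and *epi-1*. The brighter probe of *lam-3* (T22A3.8) had signals of 105 and 126 in remofuscin-treated worms, against 107 and 130 in NC. The arrays of each experiment were nearly level, and the fold change was 0.973 (95% interval 0.532 to 1.78). The dimmer probe of the same gene had 9.72 and 18.8 in remofuscin-treated worms, against 14.7 and 19.6 in NC, and was well above background on the arrays of experiment 2 only, where the groups differed by -0.06 on the log2 scale. *epi-1* (K08C7.3b) had signals of 845 and 1415 in remofuscin-treated worms, against 745 and 1373 in NC (fold change 1.08, 95% interval 0.516 to 2.27). Its remofuscin array was the higher one in each experiment, by 0.18 and 0.04 on the log2 scale, while the groups overlapped.

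*nid-1* (F54F3.1) encodes nidogen and had signals of 305 and 528 in remofuscin-treated worms, against 239 and 466 in NC. It had the highest fold change of the 9 genes, 1.20 (95% interval 0.561 to 2.58). The remofuscin array was the higher one in both experiments, by 0.35 and 0.18 on the log2 scale, and the groups overlapped.

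*unc-52* encodes perlecan, the proteoglycan core protein that anchors body-wall muscle to the epidermis and is made in many splice forms. It is the member whose probes disagreed. The probe that was brightest on average carries a RefSeq transcript accession and had signals of 30.8 and 55.0 in remofuscin-treated worms, against 24.1 and 50.4 in NC (fold change 1.18, 95% interval 0.535 to 2.60). The probe named ZC101.2e had signals of 29.3 and 14.6 in remofuscin-treated worms, against 45.3 and 33.8 in NC, and here the arrays of the groups did not overlap, as for 11.3% of all tested probes in this direction. Among NC alone this probe had the higher mean, 39.6, against 37.3 for the probe that was brightest over all 4 arrays. The probe named ZC101.2b had signals of 11.4 and 24.8 in remofuscin-treated worms, against 19.97 and 32.3 in NC. Thus, in each experiment, 1 probe was higher and 2 probes were lower in remofuscin-treated worms. When its probes were averaged, *unc-52* had a log2 fold change of -0.42, against 0.24 for the brightest probe.

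For the *unc-52* probe ZC101.2e the log2 difference was -0.63 in experiment 1 and -1.21 in experiment 2, with a fold change of 0.529 (95% interval 0.256 to 1.09, limma adjusted p = 1.00). When the fit held the experiment as a blocking factor, this probe had a limma adjusted p = 0.0163. The block fit gives every probe the same log2 SE of 0.269, in place of 0.456 for this probe, and in that fit 3.16% of all tested probes passed the adjusted limit as higher and 1.94% as lower in remofuscin-treated worms. The remofuscin array of experiment 2 was the only one where the probe was not well above background. Under normexp background correction, which adds an offset of 50 to each signal, its log2 difference was -0.22. An added constant shrinks the log2 differences of dim probes most, so this value cannot show whether the probe fell less. The other *unc-52* probes shrank too, from 0.24 to 0.04 for the brightest and from -0.59 to -0.15 for ZC101.2b. With 1 array left out the difference was -1.42 without remofuscin replicate 1, -1.13 without NC replicate 2, -0.42 without remofuscin replicate 2 and -0.71 without NC replicate 1. ZC101.2b, not well above background on the remofuscin array of experiment 1, had a fold change of 0.662 (95% interval 0.304 to 1.44, limma adjusted p = 1.00, or adjusted p = 0.290 with the block, where its unadjusted p of 0.0273 was under 0.05). Probe sequences were not used here, and which splice forms each probe binds was not examined.

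*ost-1* (C44B12.2) encodes SPARC, a secreted collagen-binding glycoprotein made in the body-wall muscle of the worm. Its signals were 2196 and 2360 in remofuscin-treated worms, against 2466 and 2571 in NC. It was the only gene of the 9 whose arrays did not overlap between the groups, as was so for 11% of all tested genes in this direction. The fold change was 0.904 (95% interval 0.502 to 1.63), and the remofuscin array was lower by 0.17 and 0.12 on the log2 scale in experiments 1 and 2. It also differed least between the experiments, by 0.10 among remofuscin-treated worms and 0.06 among NC on the log2 scale.

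**Figure D2:**
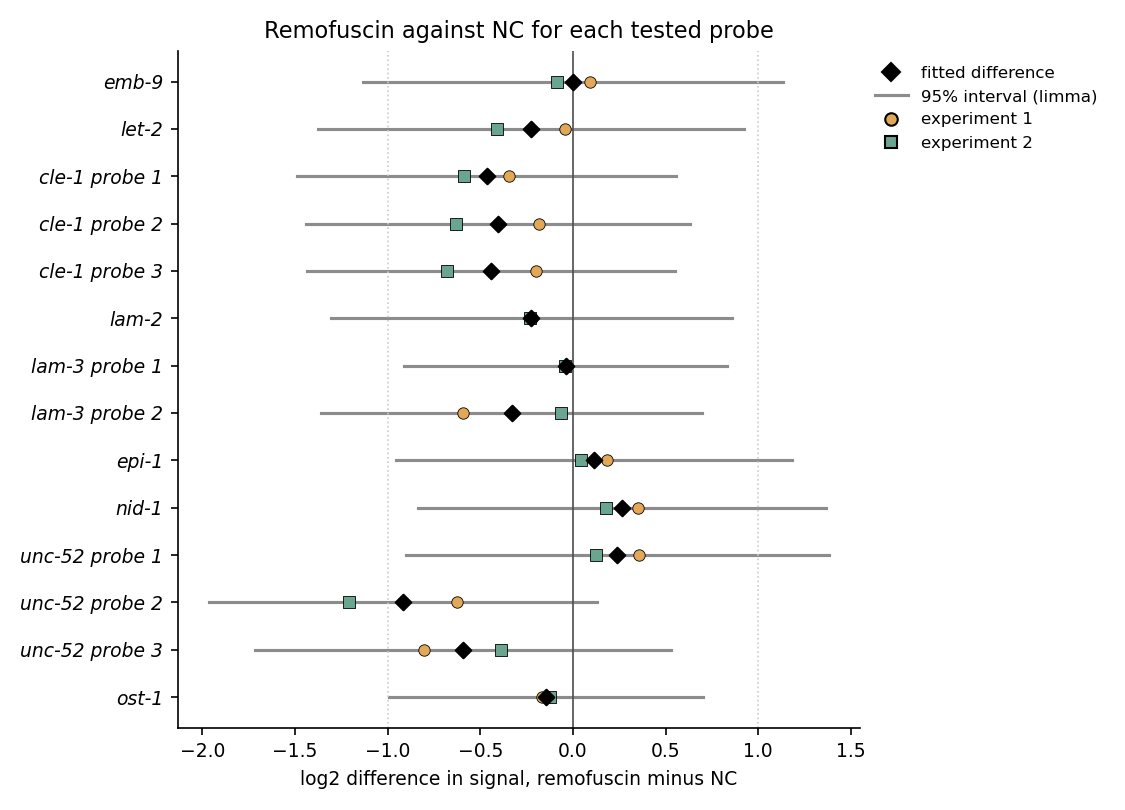
Log2 difference in signal, remofuscin minus NC, for the 14 tested probes, with the fitted difference (diamonds), its 95% limma interval (lines) and the difference within each experiment (circles and squares), and dotted lines at the 2-fold limits. Every interval crosses 0, the 3 *cle-1* probes lie together at -0.41 to -0.47, and the *unc-52* probes lie on both sides of 0.

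Across the 9 genes, each read from its brightest probe, 5 (*let-2*, *cle-1*, *lam-2*, *lam-3*, *ost-1*) were lower and 3 (*epi-1*, *nid-1*, *unc-52*) were higher under remofuscin in experiment 1 and again in experiment 2, and *emb-9* differed in sign. The *unc-52* probes ZC101.2e and ZC101.2b were lower in both experiments. Over all tested genes, 31% were lower and 29% were higher in both experiments. The median log2 difference of the 9 genes was -0.03 in experiment 1 and -0.09 in experiment 2. All 9 fitted log2 fold changes lay between -0.47 and 0.26, within the range from -0.54 to 0.67 that held the middle 90% of tested genes.

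The genes of the rest of this matrix were compared in the same fit, from 3 lists written from general knowledge. Among other basement membrane and pericellular matrix components, 11 of 13 genes were tested, 0 rose and 0 fell past the unadjusted limits, and the median log2 fold change was -0.24, with 4 genes higher and 7 lower in remofuscin-treated worms. The largest value was that of *gpn-1*, which encodes a glypican, a heparan sulfate proteoglycan of the cell surface. Its signals were 44.5 and 56.6 in remofuscin-treated worms, against 39.97 and 30.5 in NC (log2 fold change 0.52, 95% interval -0.37 to 1.42), without overlap between the groups, which held for 9.45% of all tested genes in this direction. The lowest was that of *dig-1*, a giant secreted protein that holds tissues and neurons in place, with 128 and 371 in remofuscin-treated worms, against 202 and 551 in NC (log2 fold change -0.62, 95% interval -2.08 to 0.85). Not tested were *col-99*, which was not well above background on any array, and *unc-6* (netrin), which was well above background on 1 array.

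Among integrins, dystroglycans and other receptors and adhesion partners of the basement membrane, 13 of 15 genes were tested. None rose or fell past the unadjusted limits, and the median log2 fold change was -0.18, with 1 gene higher and 12 lower in remofuscin-treated worms, 10 of them lower in both experiments. Over all tested genes, 49.8% were lower in remofuscin-treated worms. The lowest was *pat-2*, an integrin alpha subunit of muscle, with signals of 149 and 190 in remofuscin-treated worms, against 181 and 310 in NC (log2 fold change -0.50, 95% interval -1.47 to 0.48). The only higher gene was *pat-6*, an actin-binding parvin of muscle attachments, with 2515 and 2001 in remofuscin-treated worms, against 2078 and 1466 in NC (log2 fold change 0.36, 95% interval -0.55 to 1.27). The dystroglycan genes *dgn-2* and *dgn-3* were not well above background on any array.

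Among collagen-folding and collagen-modifying enzymes and matrix proteases, 12 of 14 genes were tested and again 0 rose and 0 fell past the unadjusted limits (median log2 fold change -0.10, 4 higher and 8 lower in remofuscin-treated worms). *mig-17*, a secreted metalloprotease that acts on the gonadal basement membrane, had the lowest value, with signals of 83.3 and 31.2 in remofuscin-treated worms, against 79.3 and 49.5 in NC (log2 fold change -0.30, 95% interval -1.52 to 0.93). *phy-2*, a catalytic subunit of prolyl hydroxylase, which stabilises collagen helices, had the highest, with 284 and 224 in remofuscin-treated worms, against 203 and 209 in NC (log2 fold change 0.29, 95% interval -0.58 to 1.16). *gon-1* and *adt-1*, which encode secreted metalloproteases, were not well above background on any array.

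The collagens of the cuticle are given beside these lists, from the same fit. Of 155 *col* genes on the array other than *col-99*, 115 were tested, and 70 rose and 1 fell past the unadjusted limits, with 38 higher and 0 lower at a limma adjusted p under 0.05 (0.474% and 0.0813% of all tested genes). Of the 115 genes, 13 were well above background on no NC array and 3 on no remofuscin array, and their fitted values are not measured fold changes. The median log2 fold change of the *col* genes was 1.62, or 1.44 with these genes set at the bound that the lowest signal well above background allows, against -0.04 for the 9 basement membrane genes, whose collagens had 0.00 (*emb-9*), -0.23 (*let-2*) and -0.47 (*cle-1*). The 2 lists were set side by side as values of 1 fit, and their difference was not tested.

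**Figure D3:**
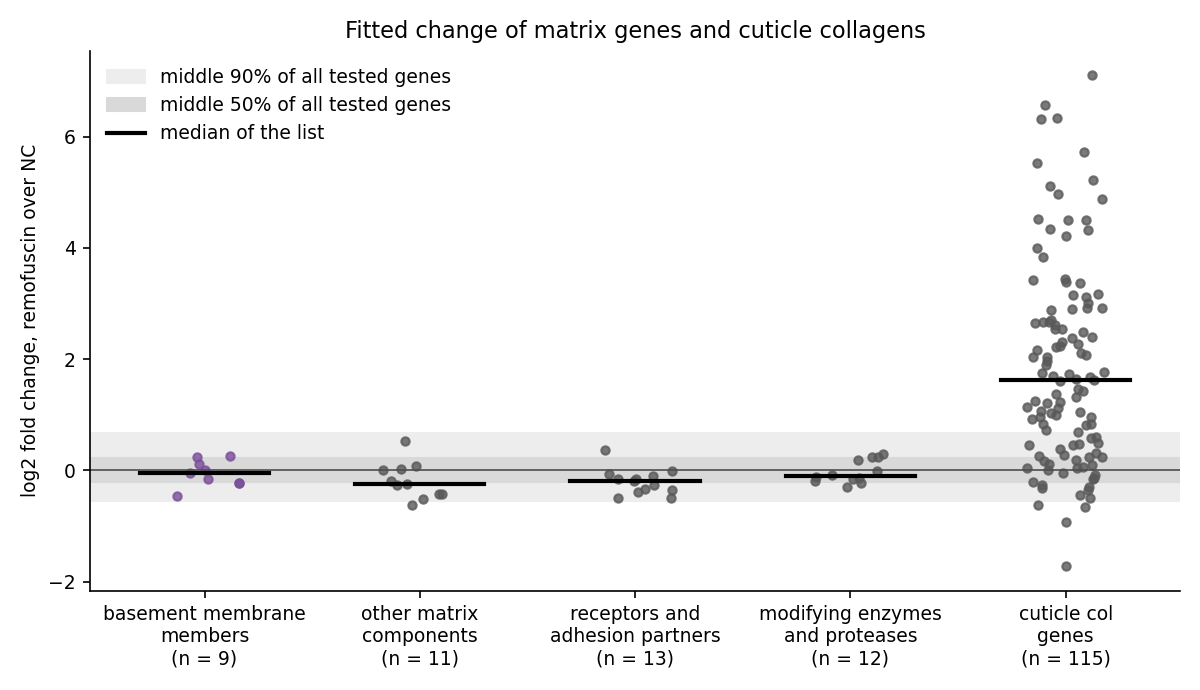
Fitted log2 fold change, remofuscin over NC, of each tested gene (points, 1 probe per gene) in 5 lists, with list medians (bars) and the ranges of all tested genes (grey bands). The 9 basement membrane genes and the 3 lists of their partners lie between -0.62 and 0.52, while the *col* genes have a median of 1.62 and reach 6.57 among the 99 that were well above background in both groups.

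The basement membrane genes differed in one direction between the 2 experiments. In experiment 2 the signal was higher than in experiment 1 for 9 of the 9 tested genes in both groups, which was so for 31.4% of all tested genes. It was at least 1.5-fold higher in both groups for 7 of the 9 genes (8.68% of all tested genes), the exceptions being *lam-3* and *ost-1*, and at least 2-fold higher among NC for *emb-9*, *let-2* and *unc-52* (6.58% of all tested genes). The median log2 difference between experiment 2 and experiment 1 was 0.77 among remofuscin-treated worms and 0.88 among NC for the 9 genes, against -0.18 among remofuscin-treated worms and -0.26 among NC for all tested genes. Each of these differences rests on 1 array per experiment in each group and has no test. The remofuscin and the NC values come from different arrays of the same experiments.

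By molecule, the type IV collagen chains differed between the experiments by 0.85 (*emb-9*) and 0.77 (*let-2*) on the log2 scale among remofuscin-treated worms, and by 1.03 and 1.14 among NC. The laminin chains *lam-2* and *epi-1* differed by 0.84 and 0.74 among remofuscin-treated worms and by 0.85 and 0.88 among NC. The laminin alpha chain *lam-3* was lower than these, with 0.26 among remofuscin-treated worms and 0.28 among NC. The *unc-52* probes disagreed here too, since ZC101.2e was 1.01 lower in experiment 2 among remofuscin-treated worms and 0.42 lower among NC on the log2 scale, and the other pair was higher in experiment 2 in both groups.

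**Figure D4:**
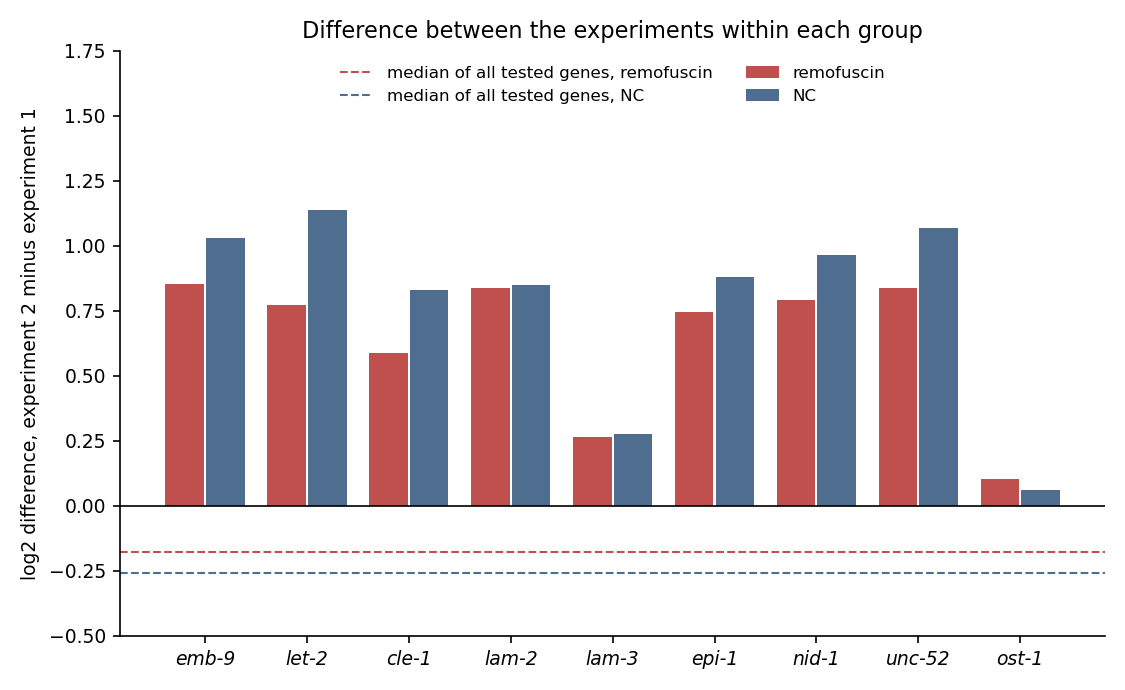
Log2 difference between experiment 2 and experiment 1 (bars from 0) in the brightest probe of the 9 tested genes, among remofuscin-treated worms (red) and NC (blue), with the medians of all tested genes (dashed lines). All bars are above 0, at 0.06 to 0.10 for *ost-1*, 0.26 to 0.28 for *lam-3* and 0.59 to 1.14 for the other genes.

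Gene length moved with the difference between the experiments over the whole array. The genomic span of each gene was taken as a length from the WBcel235 annotation. Across 14758 tested genes, Spearman's rho between span and the log2 difference of experiment 2 minus experiment 1 was 0.40 among remofuscin-treated worms and 0.57 among NC, a description across genes that share the same 4 arrays and are not independent replicates. In the 10% of tested genes with the longest spans, 7.35 kb and above, the median difference was 0.44 among remofuscin-treated worms and 0.68 among NC, against -0.26 among remofuscin-treated worms and -0.98 among NC in the 10% with the shortest spans. The basement membrane genes span 3.48 kb (*ost-1*) to 37.1 kb (*unc-52*), and 8 of the 10 are in the longest class. Of the 7 tested ones among these, 6 were above the median of that class among remofuscin-treated worms and 6 among NC, the exception being *lam-3* in both. The fitted log2 fold change between remofuscin-treated worms and NC had a rho of -0.31 with span, and its median in the longest class was -0.21, against -0.04 for the 9 basement membrane genes. The part of gene length in the values of the 9 genes was not tested.

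**Figure D5:**
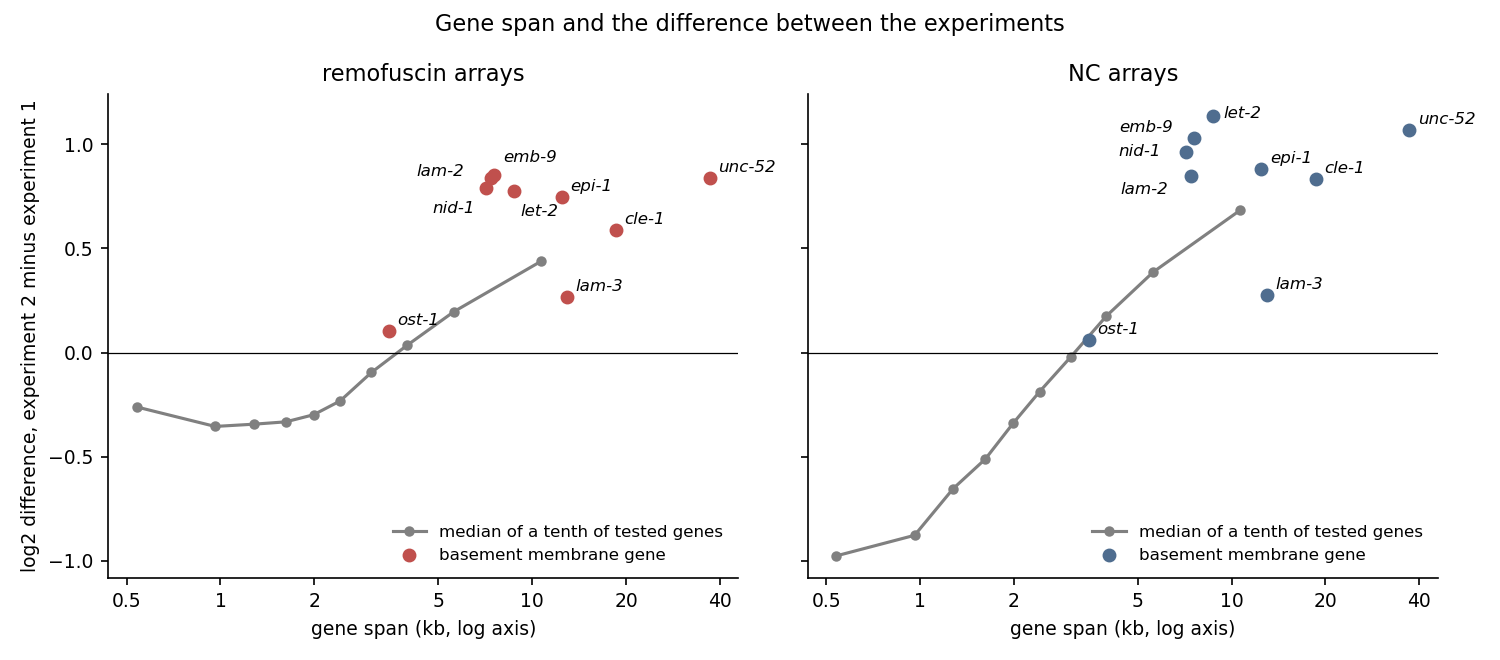
Log2 difference between experiment 2 and experiment 1 against gene span (kb, log axis) among remofuscin-treated worms (left) and NC (right), for the 9 tested basement membrane genes (coloured points) and as medians of successive classes holding 10% of tested genes each (grey line). The class medians are higher for long genes in both groups, and *lam-3*, to the right of the end of the line, lies below the median of the longest class in both.

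Markers of the tissues and stages that whole worms hold gave the following values. The 8 body-wall muscle genes were all tested, with 7 higher in remofuscin-treated worms (median log2 fold change 0.18), and *unc-27* (troponin I) rose past the unadjusted limits. The signals of *unc-27* were 13812 and 11359 in remofuscin-treated worms, against 7520 and 4205 in NC (log2 fold change 1.16, 95% interval 0.17 to 2.14, limma adjusted p = 1.00, or adjusted p = 0.00069 with the experiment block). The signals of all 8 probes summed to 18279 to 18714 in remofuscin-treated worms, against 10862 to 11484 in NC. The largest part of each sum was *unc-27*, and the gap between the groups in these sums is mostly that of this 1 probe. The myosin genes *unc-54* and *myo-3* of this list were well above background on all 4 arrays, and *unc-54* had a log2 fold change of 0.91 (limma adjusted p = 1.00, or adjusted p = 0.0181 with the block). The block fit gives every probe the same SE, so its p-values do not measure the spread of *unc-27* or *unc-54* itself. In that fit 3.16% of all tested probes passed the adjusted limit as higher in remofuscin-treated worms. Of the muscle genes 7 of 8 were higher in experiment 2 in both groups, with medians over all 8 of 0.94 among remofuscin-treated worms and 1.29 among NC. The exception was *unc-27*, with -0.28 among remofuscin-treated worms and -0.84 among NC. The somatic gonad genes had 4 tested members, all lower in remofuscin-treated worms (median log2 fold change -0.46) and none called, with a summed signal, the untested *lag-2* included, of 195 to 214 in remofuscin-treated worms, against 217 to 320 in NC. Moulting genes, which are active in larvae, had a median of -0.04 for remofuscin against NC on the log2 scale and differed between the experiments by 0.71 among remofuscin-treated worms and 0.87 among NC, with a summed signal of 758 to 1099 in remofuscin-treated worms, against 672 to 1231 in NC. The sperm genes had the lowest median of the marker lists for remofuscin against NC, -0.63 on the log2 scale, with 5 of 6 lower and none called, and differed between the experiments by 0.15 among remofuscin-treated worms and 0.38 among NC. The germ line and oocyte genes were lower in 6 of 6 (median -0.11) and higher in experiment 2 in both groups in 6 of 6, by medians of 0.44 among remofuscin-treated worms and 0.59 among NC. The intestinal genes were higher in remofuscin-treated worms in 5 of 6 (median 0.14) and differed between the experiments by 0.38 among remofuscin-treated worms and 0.59 among NC. The neuronal genes had a median of -0.07 for remofuscin against NC and differed between the experiments by 0.03 among remofuscin-treated worms and 0.11 among NC. Pharyngeal muscle, with 3 tested genes, had a median of 0.09 and differences between the experiments of -0.25 among remofuscin-treated worms and -0.43 among NC. Genes of early embryos, with 5 tested members, had a median of 0.21 and differed between the experiments by -0.04 among remofuscin-treated worms and -0.28 among NC. None of the genes in these last 5 lists passed the unadjusted limits. The part of these tissues in the values of the basement membrane genes was not tested.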

How the data were processed

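RNA of 4 pools of whole worms was hybridised to 1-colour arrays. The authors deposited the scanner output, whose intensity values the image software (version 11.5.1.1 in the file headers) had background-subtracted within each array, and a table of log2 values. On each array at least 99.97% of the probes in that deposited log2 table matched the logarithm of the scanner value to within 0.01, so it is unscaled. The normalization that the methods name was not used here.

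Control spots and outlier spots (12 and 38 on the remofuscin arrays, 8 and 12 on the NC arrays) were left out, replicate spots were averaged per probe, and each array was scaled by its 75th percentile on the log2 scale. Tests used limma 3.58.1 in R 4.3.3 (two-sided, no covariate, Benjamini and Hochberg adjustment over 29091 probes, prior of 6.23 degrees of freedom), with the thresholds on p and fold change taken from the methods. The script was tested on simulated data. The labels pair the arrays by experiment, and deviations from the group means correlated across the groups (Pearson's r 0.736, Spearman's rho 0.763 over 29057 probes, across probes). The labels call the experiments independent, and p-values measure the spread between these arrays only. All 4 arrays were on 1 slide. Figures used Python 3.11.15 and matplotlib 3.10.9.

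Of 43603 probes, 34320 were named through systematic names and accessions in the WBcel235 annotation. The array was designed on another build (ce4), so no positions or sequences were printed. The members and lists were chosen with earlier results of these data known. Named beyond them are the highest and lowest tested gene of each of the 3 matrix lists and any gene of these past the limits. Untested genes and single marker genes were named after their values were seen. Alternatives tried were scaling by the median or by quantiles, normexp (offset 50, on the median spot signal), the deposited log2 values, the methods' t-test, an intensity trend, 2 filters on dim probes, keeping outlier spots, averaging the probes of a gene, a block for the experiment, and leaving out each array.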

Additional observations from a re-analysis of the deposited data

How the results depend on the processing

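Under 15 alternatives, 11 on all 4 arrays and 4 with an array left out, 0 of the 9 tested genes passed the limits. The smallest unadjusted p on 4 arrays was 0.0834 (*cle-1*, limma with the replicate block), and the smallest adjusted p under any alternative was 0.450. On 4 arrays the sign of the log2 fold change varied for *emb-9*, *lam-3* and *unc-52*, and with an array left out *cle-1* and *ost-1* alone stayed lower throughout. The replicate block left the calls of the 9 genes as they were and, by adjusted p, changed that of the *unc-52* probe ZC101.2e alone among their 14 tested probes. By unadjusted p alone, 2 of these probes, ZC101.2e and ZC101.2b, were under 0.05 with the block, against 0 without it. It raised the probes with a limma adjusted p under 0.05 to 918 higher and 564 lower, against 108 and 19 without it, and median scaling raised them to 166 and 70. The median log2 fold change of the 9 genes, -0.04, was 0.0052 with normexp and -0.18 when the probes of a gene were averaged (where *unc-52* was at -0.42). It ran from -0.33 (without NC replicate 1) to 0.34 (without NC replicate 2), with 0.19 without remofuscin replicate 1 and -0.26 without remofuscin replicate 2. In these 4 fits the single remaining array has no spread of its own, and every gene was given the same SE, pooled over all probes. Within experiment 1 the median, -0.03, was 0.0404 under median scaling, 0.0273 under quantile normalization and -0.17 with probes averaged. Within experiment 2, at -0.09, it was -0.20 under median scaling and -0.0344 with normexp. Probes past the unadjusted limits, 535 higher and 295 lower, numbered 219 and 16 with normexp and 242 and 157 by the methods' t-test (0 and 0 after Benjamini-Hochberg adjustment). With no filter on dim probes 680 were lower, and 70 with all 4 arrays required. With an array left out they ran from 378 to 1610 higher and from 233 to 961 lower, most of both without NC replicate 1. The 3 matrix lists had 0 calls, or 0 to 5 with an array left out: *him-4*, *dig-1*, *dgn-1*, *ddr-1* and *ptp-3* were lower without NC replicate 1, and *dig-1* without remofuscin replicate 2. With an array left out, 1 experiment holds 1 group only, so the difference between the experiments enters those fold changes. What else moved the values was not tested.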
